A study of Mus musculus with 6 samples.

Results

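The cells described here were pericytes of the NG2 line after ischemic injury, set against pericytes of the same line from uninjured cortex. Their members were chosen by the cluster number in the study's cell table for the NG2 line, as the NG2-tdT+ cells of clusters 0, 1 and 2, which the study names activated pericytes (cluster 0) and canonical pericytes (clusters 1 and 2). The ischemic injury library held 1085 such cells among 3586, and the naïve library held 3243 among 4306. Together they were 4328 of the 17033 cells in the whole series. Clusters 0, 1 and 2 contributed 503, 309 and 273 ischemic cells and 1280, 1086 and 877 naïve cells. Cluster 0 was 46.4% of these ischemic and 39.5% of these naïve cells, so ratios over the summed clusters also carry this mix.

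The mice were NG2-Cre-ERT2/Ai14-flx, 3 to 4 months old, and all groups received tamoxifen. In this line tamoxifen switches on the tdTomato reporter (tdT) in any cell that drives Cre from the NG2 (Cspg4) promoter, which marks pericytes and also oligodendrocyte precursor cells (OPCs). Naïve animals had no injury, and for ischemic injury endothelin-1 (ET-1), a vasoconstrictor peptide, was injected into the cortex with L-NAME, an inhibitor of nitric oxide synthase, 7 days after tamoxifen. Physical injury was the same injection with saline, and its 1106 pericytes of the same clusters serve as a second reference. Injured cortex was dissected 3 days after injury, and live tdT+/DAPI- cells were sorted into 1 pooled library per condition, with tissue of both sexes in each pool. With 1 library a side there is no replicate error, no test between conditions was made, and every interval below is a 95% interval that covers counting error alone.

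Pericytes are mural cells that wrap brain capillaries, share a basement membrane with the endothelium, and help to set capillary tone and blood-brain barrier tightness. They are held on the vessel by PDGF-BB acting on the receptor Pdgfrb, and their tone answers to endothelin through Ednra and to nitric oxide through soluble guanylate cyclase and the kinase Prkg1. They also sense inflammation, since interferons act on them through STAT2 and IRF9, and cytokines through NF-kB and STAT3, after which they can release chemokines that call in leukocytes.

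Levels of marker genes are given first. They are no independent check of the label, since the study named its pericyte clusters by some of them (Abcc9, Pdgfrb and Vtn). The 8 pericyte markers (Kcnj8, Abcc9, Vtn, Atp13a5, Pdgfrb, Rgs5, Higd1b and Ndufa4l2) summed to 37559 CPM (UMI counts per gene scaled to the total of the summed cells) in naïve, 36351 CPM in physical injury and 37322 CPM in ischemic injury pericytes. All other cells of the ischemic library held 2023 CPM of the same markers. The naïve pericytes gave 12800521 UMIs in total and the ischemic pericytes 4638816, with a median of 3821 and 4202 UMIs per cell. The median share of mitochondrial transcripts was 2.55% and 2.27%, and 5 cell barcodes occurred in both libraries. The sex balance of the pools was not the same: Xist stood at 590.4 CPM in naïve, 720.0 CPM in physical injury and 317 CPM in ischemic injury pericytes, and the Y-linked Eif2s3y at 18.7, 14.7 and 43.1 CPM. What part the mix of sexes has in any other difference below was not tested.

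Few genes differed. Of 7201 genes with at least 20 CPM in the higher library, 36 (0.500%) were at least 2-fold higher and 5 (0.0694%) at least 2-fold lower after ischemic injury, with the same direction in each of the 3 clusters. The ratio was taken as log2 after adding 1 CPM, and 6996 genes (97.2%) lay within 0.5 of 0 on that scale, around a median of -0.01. Against the naïve library, physical injury gave 12 higher (0.166%) and 21 lower (0.290%) genes of 7250, and ischemic over physical injury gave 47 higher (0.647%) and 14 lower (0.193%) of 7267. Of the 36 higher genes, 22 were under 20 CPM in the naïve library and so were measured through their ischemic level. When genes were instead required to reach 20 CPM in the naïve library, 14 of 6994 (0.200%) were 2-fold higher and 5 (0.0715%) lower. A looser limit of 1.5-fold, chosen after the values were seen, gave 82 higher (1.14%) and 44 lower (0.611%) genes.

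**Figure D1:**
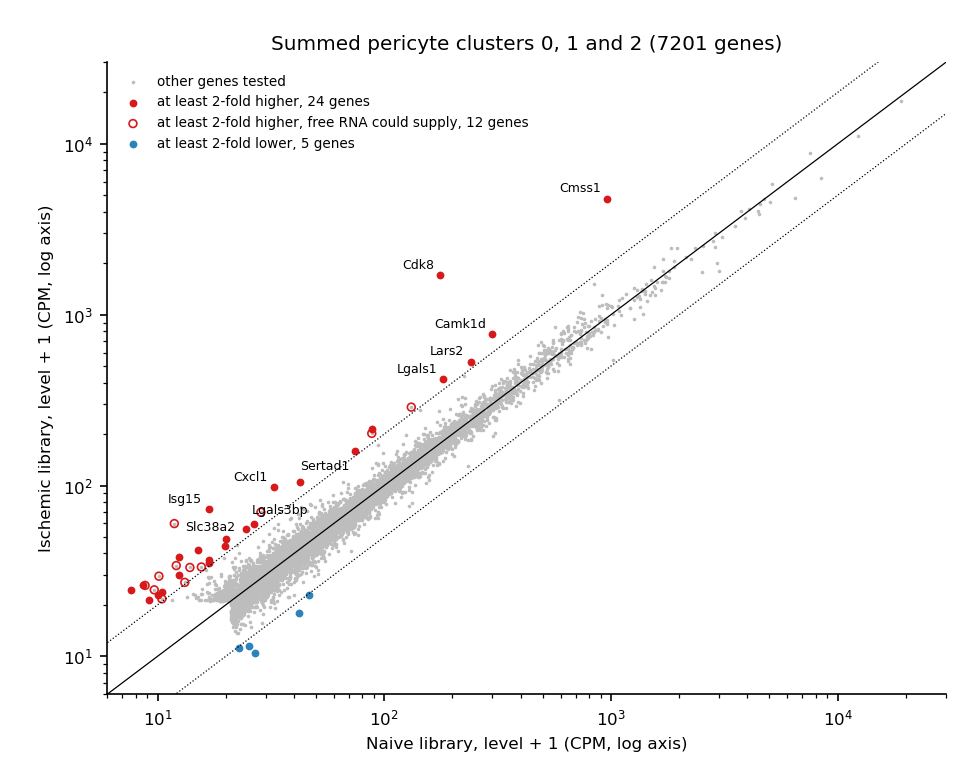
Each point is 1 of 7201 genes, with its level in the summed naïve pericytes on the x axis and in the summed ischemic pericytes on the y axis (CPM plus 1, both log axes). The solid line marks equal levels and the dotted lines 2-fold. Nearly all genes follow the solid line, the 36 higher genes lie above the upper and the 5 lower genes below the lower dotted line, and open circles mark the 12 higher genes whose level in pericytes was under 25% of that over all other cells of the library.

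Of the 36 higher genes, 16 reached 50 CPM. In 4 of those, Fabp7, Cd9 and Vim among them, the pericyte level was under 25% of the level over all other cells of the ischemic library. They are set apart under this limit, chosen with RNA released by other cells in mind. By comparison, 42 markers of oligodendrocytes, OPCs, microglia and endothelium had a median of 2.17% of that level in ischemic pericytes. Whether released RNA supplied any of the 4 genes was not tested at this step. The remaining 12 included Cdk8, Cmss1, Isg15, Cxcl1, Camk1d, Sertad1, Lgals1, Slc38a2, Lgals3bp and Lars2. The 5 lower genes (Ppil6, Tsix, Enkur, 0610043K17Rik and Apobec1) were all under 50 CPM in both libraries, and Tsix is the antisense partner of Xist.

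Among the pathway lists, that of interferon-stimulated genes had the highest median ratio. Of 27 listed, 18 reached the level to be tested, and 7 of these 18 were 2-fold higher: Isg15, Ifit3, Irf9, Xaf1, Irf1, Lgals3bp and Iigp1. At 1.5-fold, 13 of 18 were higher and none lower, and all 18 had a ratio above 0, with a median log2 ratio of 0.77 beside -0.01 over all genes tested. After physical injury 17 of the same 18 had a ratio above 0, with a median of 0.29. In 9 of the 18 the ischemic library alone reached 20 CPM. The other 9, which reached it in the naïve library too, had a median of 0.60, with 9 of 9 above 0, 5 past 1.5-fold and 1, Lgals3bp, past 2-fold. The other 6 of the 7 genes called at 2-fold were thus tested through their ischemic level alone. All 27 listed genes were in the table, and their median was 0.85.

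Promoter stretches of 4 members, chosen after their values were seen among those with the motif, are printed here because interferon acts through the interferon-stimulated response element (ISRE), the site bound by a complex with STAT2 and IRF9. The motif searched was GAAA, any 2 bases and GAAA again, on both strands, overlapping matches included, in the 250 bases before each RefSeq gene start (GRCm38.p6). Capitals mark the matches in the last 200 bases before the start, read 5′ to 3′ along the gene's strand.
Isg15, chr4:156200819-156201018, minus strand: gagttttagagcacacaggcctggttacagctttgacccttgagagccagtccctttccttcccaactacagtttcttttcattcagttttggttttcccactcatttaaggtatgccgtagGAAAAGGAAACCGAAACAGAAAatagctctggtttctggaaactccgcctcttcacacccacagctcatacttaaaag
Ifit3, chr19:34583329-34583528, plus strand: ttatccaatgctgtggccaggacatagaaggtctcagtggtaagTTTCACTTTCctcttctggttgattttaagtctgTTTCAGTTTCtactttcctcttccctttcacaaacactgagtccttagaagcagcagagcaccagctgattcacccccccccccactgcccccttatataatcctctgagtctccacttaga
Ifit1, chr19:34640689-34640888, plus strand: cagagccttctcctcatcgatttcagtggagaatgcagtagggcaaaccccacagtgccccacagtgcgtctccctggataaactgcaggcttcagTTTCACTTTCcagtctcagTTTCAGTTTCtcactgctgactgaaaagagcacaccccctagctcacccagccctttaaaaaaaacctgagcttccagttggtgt
Bst2, chr8:71537473-71537672, minus strand: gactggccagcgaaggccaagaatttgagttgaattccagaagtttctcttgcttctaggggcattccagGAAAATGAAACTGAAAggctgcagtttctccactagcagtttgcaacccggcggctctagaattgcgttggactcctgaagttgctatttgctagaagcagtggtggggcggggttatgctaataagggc
The Isg15 stretch holds 3 overlapping matches that begin 66 to 78 bases before the start, and each of the other stretches holds 2. Of the 18 tested interferon-stimulated genes, 15 had a RefSeq window, and 6 of these 15 (40%) held the motif, as did 978 of all 32851 windows (2.98%). The 6 were Isg15, Ifit3, Bst2, Stat2, Ifitm2 and Gbp7, so that they included 2 of the genes called at 2-fold, and Ifitm2 and Gbp7, which were close to even. Irf9, Irf1, Xaf1 and Lgals3bp, also called, had windows without a match. A match describes the letters of the window and does not show that the site was bound in these cells.

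Isg15, a ubiquitin-like protein that is attached to other proteins in interferon-treated cells, had 15.8 CPM (13.7 to 18.1) in the naïve, 43.1 CPM (37.7 to 49) in the physical injury and 71.8 CPM (64.3 to 79.9) in the ischemic injury library. It was thus 4.55-fold higher after ischemic injury than in naïve pericytes (3.81 to 5.45), with log2 ratios of 2.21, 2.14 and 1.98 in clusters 0, 1 and 2. The 3 libraries did not overlap in their counting intervals, and the saline library lay between the others. Isg15 was also 2-fold higher after physical injury. Ifit3, an antiviral protein, followed the same order of libraries, at 11.4, 20.3 and 37.1 CPM, and was 3.25-fold higher (2.59 to 4.08) after ischemic injury.

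The signalling components followed in part. Irf9, the DNA-binding subunit of the complex that reads the ISRE, had 14.1 CPM in naïve, 23.7 CPM in physical injury and 41 CPM in ischemic injury pericytes, a 2.9-fold difference (2.35 to 3.57) between the first and the last. Its partner Stat2 differed less, at 1.51-fold higher (1.23 to 1.86), and did not have the same direction in all 3 clusters, with a log2 ratio of -0.11 in cluster 2. Irf1, a transcription factor induced most strongly by interferon-gamma, stood at 11.5, 11.8 and 28.9 CPM, so that here the saline library was level with the naïve one. It was 2.46-fold (1.81 to 3.37) higher in the ischemic than in the physical injury library.

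Among effectors, Iigp1, a GTPase that acts on parasite vacuoles, had 15.9, 21.8 and 34.3 CPM in naïve, physical injury and ischemic injury pericytes, and Xaf1, a proapoptotic partner of XIAP, had 19.1, 30.2 and 47.4 CPM. Lgals3bp, a secreted binding partner of galectins, had 25.6, 32.7 and 58.4 CPM. The order of the libraries was the same in all 3 genes. Abundant members differed by less. Ifitm3, a membrane protein that blocks virus entry, had 843 CPM in naïve, 928 CPM in physical injury and 1522 CPM in ischemic injury pericytes, a 1.8-fold difference (1.75 to 1.86) that was nearly the same in the 3 clusters (log2 0.89, 0.89 and 0.84). Bst2, or tetherin, was 1.65-fold (1.43 to 1.9) and Ifi27 1.56-fold (1.46 to 1.68) higher. Ifitm2, the neighbour of Ifitm3 in the same family, was 1.07-fold (1.02 to 1.11) and Gbp7 1.02-fold (0.871 to 1.2) higher, which places both within the bulk of genes.

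Several members were too low to be tested and are named here after their values were seen. Ifit1, whose promoter is printed above, had 30 UMIs in naïve and 81 UMIs in ischemic pericytes, 7.45-fold higher in CPM (4.85 to 11.7). Usp18, which removes Isg15 from proteins and dampens the interferon receptor, was 6.85-fold (4.32 to 11.1) and Irf7, the amplifier of type I interferon genes, 5.61-fold (3.54 to 9.08) higher. Rtp4, an interferon-induced chaperone that is not on the list, was among the 36 higher genes at 6.64, 11.2 and 23.5 CPM in naïve, physical injury and ischemic injury pericytes. MHC class I presentation genes stayed close to the background, with a median log2 ratio of 0.10 over 10 tested and 1 past 1.5-fold. That 1 gene was tested through its ischemic level alone. Of the 9 that reached 20 CPM in the naïve library, 0 were past 1.5-fold, with a median of 0.05. B2m, the light chain of MHC class I, had a log2 ratio of 0.44, and H2-K1 and H2-D1, 2 heavy chains, had folds of 0.998 (0.91 to 1.1) and 0.909 (0.853 to 0.967).

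**Figure D2:**
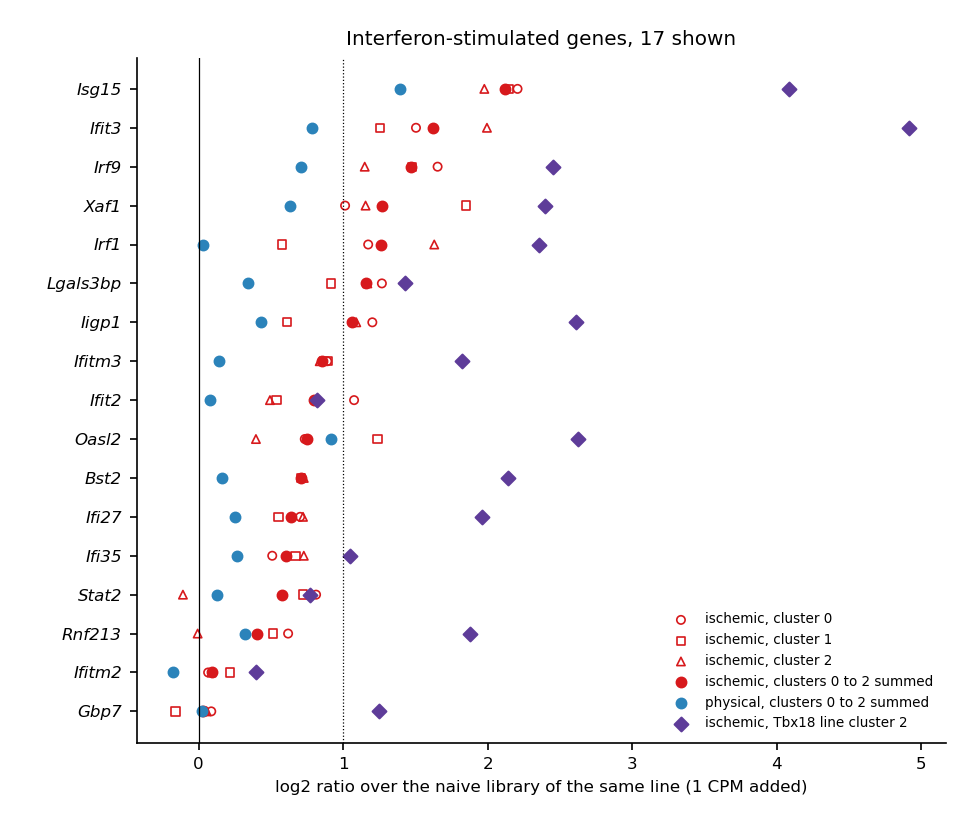
The log2 ratio over the naïve library (x axis, 1 CPM added) of 17 of the tested interferon-stimulated genes (rows), for ischemic injury in the 3 clusters (open symbols) and their sum (red), for physical injury (blue) and for ischemic injury in cluster 2 of the Tbx18 line (diamonds). The red points of all 17 genes lie above 0, and 7 lie past the dotted line at 1 (2-fold).

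Per cell these transcripts were sparse. To compare libraries of unequal depth, cells were thinned to 1000 UMIs, shallower cells were left out, and the 24 listed genes under 50 CPM in the naïve library were counted per cell. At least 1 of the 24 was detected in 30.9% of 3208 naïve cells (29.3 to 32.5%), 35.9% of 1086 physical injury cells (33.1 to 38.8%) and 42.5% of 1029 ischemic injury cells (39.4 to 45.6%). The mean was 0.383, 0.527 and 0.705 UMIs of the 24 per cell, so a cell without a UMI may still express them, and these shares do not give the share of cells that respond. In the oligodendrocyte cluster, thinned alike, the share was 9.09% of 99 naïve cells (4.24 to 16.6%), 8.22% of 292 physical injury cells (5.34 to 12%) and 16.4% of 572 ischemic injury cells (13.5 to 19.7%). At least 3 of the 24 were found in 0.623% of naïve (0.381 to 0.961%), 3.22% of physical injury (2.25 to 4.45%) and 4.76% of ischemic injury cells (3.54 to 6.25%). For ischemic against naïve cells the intervals of both shares stayed apart in each cluster, while those of the 2 injured libraries overlapped within each single cluster. These intervals count cells of 1 pool a side, which are not replicates of a condition, and the clusters share the same libraries. The 24 genes were also chosen by a low level in the naïve library, 1 side of the comparison. For Isg15 alone, 5.05% of thinned ischemic pericytes had a UMI, beside 1.68% of naïve ones. Without thinning these shares were 13.7% and 5.09%, and in the oligodendrocyte cluster of the ischemic library, with a median of 29600.5 UMIs per cell, the share was 2.2%. Other clusters of the ischemic library held more Isg15 than the 71.8 CPM of these pericytes. It had 360 CPM in mesenchymal-like pericytes (cluster 8), 275 CPM in endothelial cells (cluster 5) and 118 CPM in microglia (cluster 9). Levels were lower in OPCs (cluster 6, 16 CPM) and radial glial precursors (cluster 7, 14.3 CPM).

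**Figure D3:**
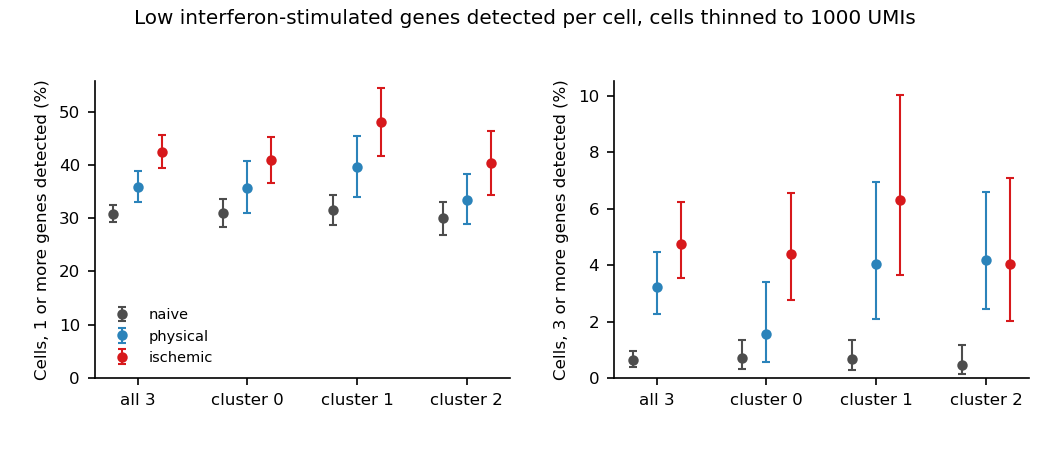
Share of pericytes (%) in which at least 1 (left) or at least 3 (right) of 24 low interferon-stimulated genes were detected after thinning to 1000 UMIs, for all 3 clusters and for each, with 95% exact binomial intervals. Over all 3 clusters the share with 3 or more was 0.623% in naïve, 3.22% in physical injury and 4.76% in ischemic injury cells.

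Chemokine and NF-kB genes differed less as lists. Of 25 listed chemokines and cytokines, 3 could be tested (Cxcl1, Cxcl12 and Il34), 1 of the 3, Cxcl1, was called, and the median log2 ratio was 0.12. Cxcl1, a chemokine that draws in neutrophils, had 31.7 CPM (28.7 to 35) in naïve, 20.2 CPM (16.5 to 24.3) in physical injury and 97.2 CPM (88.5 to 107) in ischemic injury pericytes. It was 3.07-fold higher (2.67 to 3.51) than in the naïve and 4.82-fold higher (3.9 to 6.01) than in the physical injury library, so the saline library was the lowest of the 3. Its log2 ratio over naïve was 1.49 in cluster 0, 0.68 in cluster 1 and 0.70 in cluster 2, and in clusters 1 and 2 the interval of the fold included 1 (0.715 to 3.77 and 0.983 to 2.8). The folds in clusters 0, 1 and 2 (2.84, 1.7 and 1.68) were all below the summed fold. Among these 3 clusters Cxcl1 was highest in cluster 0, which was 39.5% of the naïve, 34.4% of the physical injury and 46.4% of the ischemic pericytes. The part of this mix in the summed folds was not tested. After thinning, 6.12% of ischemic and 2.62% of naïve pericytes had a Cxcl1 UMI, beside unthinned shares of 14.1% and 7.34%, and 2.03% of the deeper oligodendrocyte cells of the ischemic library. Mesenchymal-like pericytes (cluster 8) held far more Cxcl1, with 655 CPM in naïve and 686 CPM in ischemic cells. Cxcl12, a chemokine that mural cells make at rest, was 0.825-fold of naïve (0.767 to 0.887), and Il34, a survival factor for microglia, 1.08-fold (1.03 to 1.14).

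Of 13 tested genes of the NF-kB, STAT3 and acute phase list, none was 2-fold higher, 3 were 1.5-fold higher and the median log2 ratio was 0.29, or 0.15 in cluster 1 alone. The 3 were Nfkbia, Nfkbiz and Ier3. Nfkbia, the inhibitor that NF-kB induces against itself, had 143, 163 and 277 CPM in naïve, physical injury and ischemic injury pericytes, a 1.93-fold difference (1.8 to 2.08) between naïve and ischemic. Nfkbiz, a nuclear cofactor of NF-kB, had 45.9, 34.3 and 76.5 CPM, and like Cxcl1 it was lowest after physical injury. Stat3 was 1.43-fold (1.29 to 1.57) and its target Socs3 1.26-fold (1.16 to 1.37) higher, with Socs3 below naïve in clusters 1 and 2 (log2 -0.64 and -0.05). Both printed promoters below belong to the genes of this group with the largest ratios, and capitals mark the kB motif (GGGA, any 2 bases, TTCC), searched on both strands in the same windows.
Cxcl1, chr5:90891045-90891244, plus strand: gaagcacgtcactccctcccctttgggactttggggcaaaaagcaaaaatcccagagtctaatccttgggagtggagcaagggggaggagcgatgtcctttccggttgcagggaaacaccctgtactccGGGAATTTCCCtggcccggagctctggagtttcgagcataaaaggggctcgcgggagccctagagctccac
Nfkbia, chr12:55492648-55492847, minus strand: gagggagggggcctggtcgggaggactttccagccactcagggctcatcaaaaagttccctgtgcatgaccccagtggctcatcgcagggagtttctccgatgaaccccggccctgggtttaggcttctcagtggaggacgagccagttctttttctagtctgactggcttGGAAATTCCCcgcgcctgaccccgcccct
The Cxcl1 stretch holds 2 overlapping matches, which begin 70 and 71 bases before the start, and the Nfkbia stretch holds 1, which begins 29 bases before it. Over all 32851 windows, 397 (1.21%) held this motif. Of the 13 tested genes of the NF-kB list, 9 had a window and 1 of the 9, Nfkbia, held it.

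A further group was of galectin, vimentin, S100 and tubulin genes, which are often higher in activated cells. Of these, vimentin and the tubulins build the cytoskeleton. Of 15 listed galectin, vimentin, S100 and annexin genes, 8 were tested, 2 were 2-fold and 4 were 1.5-fold higher, and the median log2 ratio was 0.46. Lgals1, or galectin-1, a lectin that binds surface glycans, had 182 CPM (174 to 189) in naïve, 209 CPM (197 to 222) in physical injury and 416 CPM (398 to 435) in ischemic injury pericytes. The ischemic library was 2.29-fold higher than naïve (2.16 to 2.44) and 1.99-fold higher than saline (1.85 to 2.14), and the naïve and saline libraries were close. S100a11, a calcium-binding partner of annexins, had 224, 237 and 437 CPM, 1.95-fold higher than naïve (1.84 to 2.06). Annexins differed less, with Anxa2 at 1.19-fold (1.08 to 1.32) and Anxa5 at 1.05-fold (0.994 to 1.1).

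Vim, the intermediate filament vimentin, had 87.1, 104 and 201 CPM in naïve, physical injury and ischemic injury pericytes, but its ischemic level was 15.4% of that over all other cells of the library. S100a6 and S100a10, too low to be tested and named after their values were seen, had 17 and 12 UMIs in naïve and 84 and 62 UMIs in ischemic pericytes, at 4.09% and 4.72% of the level over all other cells. Lgals1 stood at 38.6% and S100a11 at 156% of that level. Of 8 tubulins, all tested, 8 had a ratio above 0, 2 were 1.5-fold higher and the median was 0.47, beside 0.01 after physical injury. Both of these 2 were tested through the ischemic library alone, and of the 6 that also reached 20 CPM in the naïve library 0 were past 1.5-fold, with a median of 0.45. Tubb6, a beta-tubulin isotype with 7.66, 8.03 and 25 CPM, was 3.27-fold higher (2.47 to 4.32), and the most abundant, Tuba1a, with 602, 575 and 766 CPM, was 1.27-fold higher (1.22 to 1.32). Contractile and actin genes stayed near the background, with a median of 0.11 over 24 tested and none past 1.5-fold.

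Sertad1 shared a pattern with Cxcl1. Sertad1, a regulator of cyclin D and CDK4, had 41.5 CPM (38 to 45.2) in naïve, 28.7 CPM (24.4 to 33.7) in physical injury and 103 CPM (94.2 to 113) in ischemic injury pericytes. It was 2.49-fold higher than naïve (2.2 to 2.82), with log2 ratios of 1.38, 0.68 and 1.00 in clusters 0, 1 and 2. The saline library lay below the naïve one, as it did for Cxcl1. Slc38a2, a transporter of neutral amino acids, had 23.6, 30.4 and 54.3 CPM and was 2.3-fold higher (1.94 to 2.73).

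Of 13 tested genes of matrix remodelling and wound proteins, 3 were 1.5-fold higher and 1 was 1.5-fold lower, with a median of 0.19. Of the 3, Loxl2 was tested through its ischemic level alone. Among the 12 genes that reached 20 CPM in the naïve library, 2 were 1.5-fold higher, with a median of 0.17. The higher ones included Adamts1, a secreted protease of proteoglycans (46.4, 51.3 and 75.9 CPM in naïve, physical injury and ischemic injury pericytes), and Loxl2, a collagen crosslinking enzyme (10.6, 14.7 and 20.5 CPM). The lower one was Spp1, or osteopontin, with 307, 111 and 202 CPM, so that physical injury had the lowest level. Plat, a protease that dissolves clots, had 553, 614 and 709.7 CPM, a difference of 1.28-fold (1.23 to 1.34) that was alike in the 3 clusters (log2 0.38, 0.37 and 0.37). Among collagens and basement membrane genes, the median was 0.08 over 16 tested. Col4a1 and Col4a2, the collagen chains of the capillary basement membrane, were 1.11-fold (1.07 to 1.15) and 1.25-fold (1.18 to 1.31) higher. Col5a3, with 42, 76.3 and 73.5 CPM, was the 1 gene of this list past 1.5-fold, and both injured libraries were level for it.

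**Figure D4:**
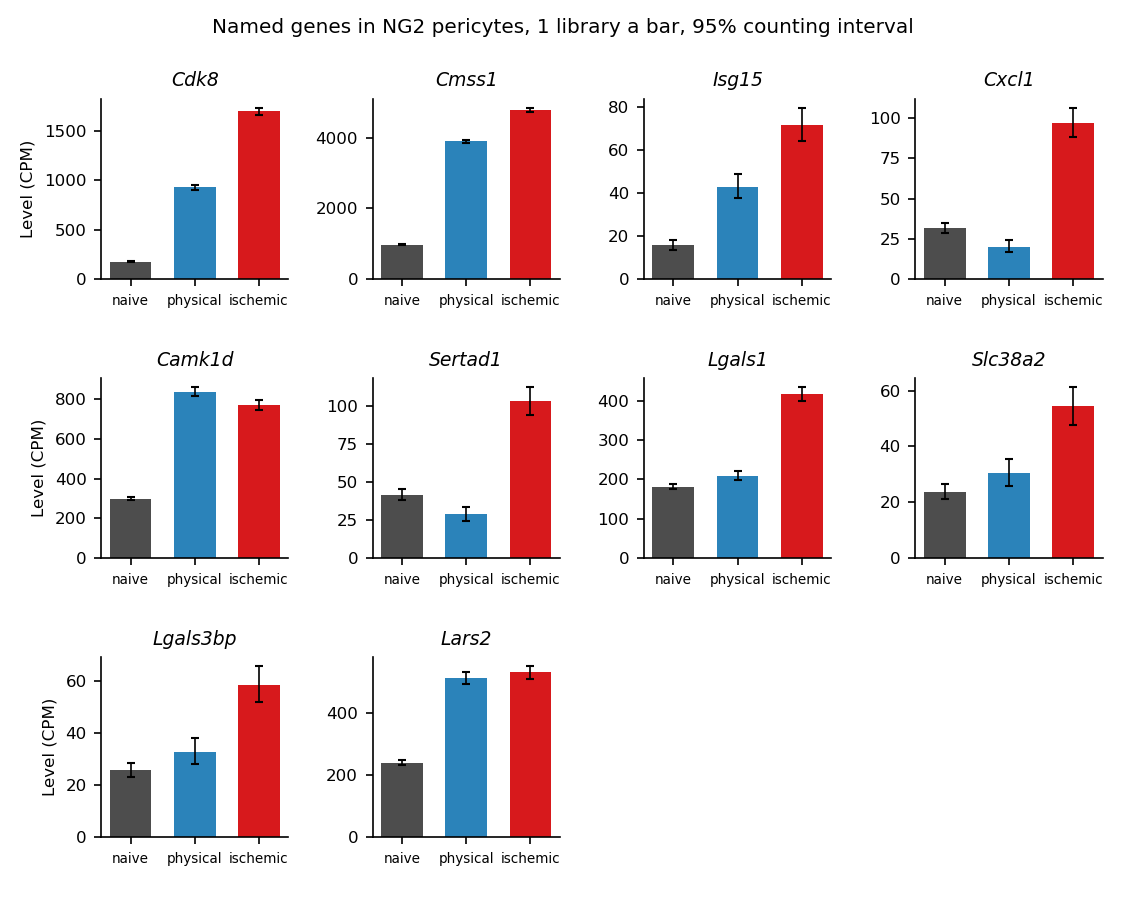
Level (CPM, linear axes from 0) of 10 named genes in pericytes of the naïve, physical injury and ischemic injury libraries, 1 library a bar with its 95% Poisson interval. Cxcl1 and Sertad1 were lowest after physical injury and highest after ischemic injury, whereas Camk1d was highest after physical injury.

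Some of the called genes were higher in both injured libraries. Cdk8, the kinase of the Mediator complex, had 175 CPM (168 to 183) in naïve, 928 CPM (903 to 954) in physical injury and 1699 CPM (1661 to 1737) in ischemic injury pericytes, and its 9.68-fold difference (9.24 to 10.2) was the largest of the 36. Cmss1, a nucleolar protein gene, had 964, 3889 and 4783 CPM, 4.96-fold higher (4.85 to 5.07). Camk1d, a calmodulin-dependent kinase, had 299, 838 and 769 CPM, and Lars2, the mitochondrial leucyl-tRNA synthetase, had 239.6, 512 and 531 CPM. Of the 36 genes, 6 were also 2-fold higher after physical injury, among them these 4 and Isg15. All 4 also had a ratio above 0 in the 5 other NG2 clusters with enough cells (clusters 3, 4, 5, 6 and 8). There Cdk8 reached log2 ratios of 1.57 to 3.07 and Cmss1 of 1.27 to 1.93. Camk1d and Lars2 were each 2-fold higher in 1 of the 5. These 4 genes were set together after their values were seen. They were not alone in this: Lgals1, Irf9, Lgals3bp, Tubb6, Ifitm3 and S100a11 also had a ratio above 0 in all 5. Ifit3, Xaf1, Iigp1, Cxcl1 and Sertad1 did in 4 of the 5, and Isg15 and Irf1 in 3.

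Pericyte identity genes differed little. The choice of cells partly fixed this, since the study named the clusters by markers that include Abcc9, Pdgfrb and Vtn. Cells that had lost such transcripts may lie outside these clusters. All 22 listed identity genes were tested, none was past 1.5-fold in either direction, and their median log2 ratio was -0.07, within a range from -0.23 to 0.22. Cspg4, the NG2 proteoglycan whose promoter drives the reporter, had 799 CPM (783 to 814) in naïve, 761 CPM (738 to 785) in physical injury and 765 CPM (740 to 790) in ischemic injury pericytes. Pdgfrb, the receptor that anchors pericytes, had 1599, 1566 and 1547 CPM, and Vtn, the matrix protein vitronectin, 19134, 18539.7 and 17818 CPM. Their ischemic over naïve folds were 0.958 (0.921 to 0.995), 0.968 (0.942 to 0.994) and 0.931 (0.924 to 0.939), so the libraries were close. Rgs5, a brake on G protein signalling in mural cells, was the highest of the 22 in ratio, with 7554, 7448 and 8802 CPM (1.17-fold, 1.15 to 1.18). Of 11 tested pericyte transporters, 2 had a ratio above 0 and the median was -0.21, with the GABA carrier Slc6a13 at -0.42 and the organic anion carrier Slc22a8 at -0.33.

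Genes of endothelin, nitric oxide and other vasoactive signalling differed little as a list 3 days after the injection. Nitric oxide synthase, on which L-NAME acts, was not on this list. Over 18 tested genes of endothelin, nitric oxide and vasoactive signalling the median log2 ratio was -0.02, and 1 was past 1.5-fold. That gene was Rgs16, another inhibitor of G protein signalling, with 21.3, 21.8 and 43.5 CPM in naïve, physical injury and ischemic injury pericytes; its fold of 2.04 (1.69 to 2.46) stayed just under the limit once 1 CPM was added. Ednra, the endothelin receptor of mural cells, had 295, 402 and 364 CPM and was 1.24-fold higher (1.17 to 1.31). Prkg1, the kinase activated through nitric oxide and cyclic GMP, had 1446, 1932 and 1199 CPM, so that the injured libraries lay on opposite sides of the naïve one. Gucy1b1, a subunit of the nitric oxide receptor, was 0.897-fold (0.869 to 0.926) and the adenosine receptor Adora2a 0.712-fold (0.633 to 0.799) of naïve, the latter in all 3 clusters (log2 -0.48, -0.49 and -0.44).

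Hypoxia and glycolysis genes had a median of 0.12 over 20 tested, with 2 past 1.5-fold above and 1 below. The higher pair was Ddit4, an mTORC1 inhibitor induced by hypoxia (28.3, 39 and 46.6 CPM in naïve, physical injury and ischemic injury pericytes), and Adm, the vasodilator adrenomedullin (20.5, 28.4 and 32.3 CPM). Glycolytic enzymes were close to even, with Ldha at 1.12-fold (1.04 to 1.2) and Aldoa at 0.951-fold (0.913 to 0.99). Eno1, at 37, 28.4 and 21.1 CPM, was the lower one. Genes for AMPK, atypical PKC and CBP had a median of -0.09 over 7 tested and none past 1.5-fold. Crebbp, which encodes CBP, was at 0.986-fold (0.919 to 1.06). The study probed this pathway in cultured cells at the protein level, a measure that transcript levels do not give. The angiogenic ligands and receptors had a median of 0.03 over 15 and none past 1.5-fold.

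Heat shock and immediate early genes, which also respond to cell handling, were divided. The inducible Hsp70 genes Hspa1a and Hspa1b were lower: Hspa1a had 2988 CPM in naïve, 1946 CPM in physical injury and 1813 CPM in ischemic injury pericytes, and Hspa1b had 1025, 450.3 and 543 CPM. Their folds over naïve after ischemic injury were 0.607 (0.592 to 0.621) and 0.53 (0.507 to 0.553), and both were lower in all 3 clusters. Hsp90aa1 and the constitutive Hspa8 were 1.32-fold (1.27 to 1.38) and 1.27-fold (1.22 to 1.31) higher, so that the 14 tested members had a median of -0.06. Hspa1a and Hspa1b are near-identical copies, and the split of reads between them is uncertain.

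Of 17 tested immediate early genes none was past 1.5-fold in the ischemic library with the same direction in each cluster, and the median was 0.26. After physical injury the median of the same genes was -1.14, and 10 of the 17 were at least 2-fold lower than naïve. Over all 7250 genes tested, 0.290% were 2-fold lower with the same direction in each cluster. Fos, a subunit of the AP-1 factor, had 5125, 2118 and 5853 CPM in naïve, physical injury and ischemic injury pericytes, and Egr1 had 1843, 646 and 2457 CPM. Jun, the partner of Fos, had 6500.1, 2442 and 4838 CPM. These transcripts were highest in cluster 0, where the listed genes summed to 38412 CPM in naïve, 17997 CPM in physical injury and 36271 CPM in ischemic injury cells. In cluster 1 they summed to 9772, 3823 and 5568 CPM, so that the ischemic library lay nearer to the saline one. The median log2 ratio over naïve was -0.44 there. In cluster 2 they summed to 9302, 4978 and 7799 CPM. The ischemic sum was thus below naïve in each cluster, while over all 3 clusters it was near even (21914 CPM in naïve and 21823 CPM in ischemic pericytes). Cluster 0 was 39.5% of the naïve, 34.4% of the physical injury and 46.4% of the ischemic pericytes. The part of this mix was not tested. In the direct ratio of ischemic over physical injury, 11 of the 17 were at least 2-fold higher, beside 0.647% of all 7267 genes under the rule with clusters. Where ischemic pericytes are compared with the saline library, this difference enters.

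Transcripts of some other cell types, oligodendrocytes first, were also higher in the ischemic pericytes, while astrocyte markers summed to 47.7 CPM in naïve and 33.2 CPM in ischemic pericytes and smooth muscle markers to 138 and 129 CPM. Of 10 oligodendrocyte markers 7 were tested, 4 were 2-fold higher and the median log2 ratio was 1.04, beside -0.53 after physical injury. Of the 7, 3 were tested through the ischemic library alone, and over the other 4 the median was 0.63, with 1 gene 2-fold and 2 genes 1.5-fold higher. The 10 markers summed to 259 CPM in naïve and 513 CPM in ischemic pericytes, with none at 0 in either, while over all other cells of the same libraries they summed to 11403 and 29890.0 CPM. The pericyte level was thus 2.27% of that of other cells in the naïve and 1.72% in the ischemic library. OPC markers stood at 3.13% and 2.8%, radial glial markers at 30.8% and 11.3%, and microglia markers at 13.5% and 10.8% of the other cells. Neutrophil markers were at or near 0, with 3 of 3 in the table at 0 UMIs in ischemic pericytes, and the T cell markers summed to 7.11 CPM.

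Fabp7, a fatty acid binding protein of radial glia and a marker of the precursor cells that the study traced, had 10.9, 14.7 and 58.9 CPM in naïve, physical injury and ischemic injury pericytes, 5.42-fold higher than naïve (4.4 to 6.7). Its ischemic level was 5.68% of that over all other cells of the library. The precursor gene Sox2, too low to be tested, had 13 UMIs in naïve and 20 UMIs in ischemic pericytes, or 1.02 and 4.31 CPM, 4.25-fold higher (2.01 to 9.29), at 2.69% of the level over all other cells. Of the 5 tested genes of the neural stem cell and reprogramming list, Fabp7 was the 1 past 1.5-fold, and Nes, the intermediate filament nestin, had 153, 154 and 182 CPM. Fabp7 was tested through its ischemic level alone. Of the 4 genes that reached 20 CPM in the naïve library, 0 were past 1.5-fold, with a median log2 ratio of 0.30. Subtracting from each library the profile of its other cells, scaled to these markers, left 33 higher genes, 27 of them among the 36. Fabp7 then had a log2 ratio of 1.78 and Mobp, a myelin protein gene, one of -1.34, while the interferon-stimulated list kept a median of 0.78. The part of free RNA in single genes was not tested further.

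A second pair of libraries allowed the same comparison with no sample in common. In the Tbx18 line, whose reporter is driven by the mural transcription factor gene Tbx18, cluster 2 holds the canonical pericytes, with 226 naïve and 86 ischemic cells. Of the 36 genes higher in NG2 pericytes, 26 reached the level to be tested there, 23 of the 26 had a ratio above 0, 18 were 2-fold higher, and 20 had a counting interval above 1 against 2 with an interval below 1. Over all genes tested there, 8.75% were 2-fold higher, 6.79% were 2-fold lower and 51.1% had a ratio above 0. The median log2 ratio of the 26 was 1.76, beside 0.02 over all genes tested. The 26 include the Y-linked Eif2s3y, with 14.8 CPM in naïve and 42.6 CPM in ischemic cells of this line. They also include genes that free RNA could supply in the NG2 line, such as Vim and Cd9. Of the 26, 9 were tested through the ischemic library alone, and of the other 17, 14 had a ratio above 0 and 9 were 2-fold higher, with a median of 1.09. Genes low in both libraries of this line dropped out, among them Fabp7, with 11.4 CPM in naïve and none in ischemic cells. The ischemic pericytes of this line gave 352373 UMIs. They were 4.2% of their library, and 11 of the 86 cells had under 1000 UMIs. Their levels were not set against the other cells of the Tbx18 libraries, so the part of free RNA in this line was not tested.

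Interferon-stimulated genes were higher in the Tbx18 line as well. Ifit3 had 5 UMIs in naïve and 46 UMIs in ischemic cells, or 3.36 and 131 CPM, and Isg15 had 18 and 78 UMIs, or 12.1 and 221 CPM, 18.3-fold higher (10.8 to 32.5). All 18 genes of the list that were tested in NG2 pericytes had a ratio above 0 there, with a median log2 ratio of 2.00. Cxcl1 had 39.7 and 1089.8 CPM, 27.5-fold higher (20.8 to 36.8). With physical injury added, the order of libraries differed in part from the NG2 line. In the 433 saline cells of cluster 2, Cxcl1 had 383 CPM, above the naïve library. Lgals1 had 112, 482 and 465 CPM in naïve, physical injury and ischemic cells, and Irf1 had 36.3, 234 and 190 CPM. Neither was higher after ischemic than after physical injury. Isg15 and Ifit3 had 72.1 and 39.7 CPM after physical injury, between the other libraries as in NG2 pericytes. Sertad1 was 1.29-fold of naïve (0.874 to 1.85), an interval that includes 1. Identity genes differed between the lines: the 22 had a median of -0.69 in the Tbx18 line beside -0.07 in the NG2 line, and this difference between lines was not tested.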

How the data were processed

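NG2-tdT+ and Tbx18-tdT+ cells were measured by droplet single-cell RNA-seq, 1 pooled library per line and condition. The authors aligned reads with Cell Ranger and deposited raw UMI counts per gene and cell. The submitters' processing notes name version 7.0.0 and GRCm38/mm10, while the methods give a range of versions and not which library had which, so a difference in version between libraries cannot be told apart from the conditions. The deposited cell tables give each cell's library, cluster number, UMI count and percent of mitochondrial UMIs. The study's methods kept cells with at least 200 genes and at most 12% mitochondrial transcripts, and clustered them after integration. Since that clustering used these same cells, genes that define clusters 0 to 2 are constrained by it. No doublet step is named in the methods, and none was run here.

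UMI counts were summed over clusters 0, 1 and 2 per library and scaled to CPM. Genes with at least 20 CPM in the higher library were compared as log2(CPM + 1). A gene was called at 2-fold with the same direction in each cluster. Exact Poisson (CPM), conditional binomial (fold) and Clopper-Pearson (share) 95% intervals were computed with Python 3.11.15, numpy 2.4.6, scipy 1.17.1 and pandas 2.3.3. With 1 library a side no test was possible. On simulated counts for this comparison (7131 genes tested), 100 of 100 raised and 100 of 100 lowered genes were recovered, and 0 unchanged genes were called; this simulation holds counting error alone and not the spread between pools.

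The named genes were the 15 largest and 15 smallest ratios among called genes with at least 50 CPM, without mitochondrially encoded genes, Gm42418, AY036118, sex-linked genes of the pools and genes under 25% of the level over other cells. From each list up to 8 members were to be named, called ones first and then the most abundant. Named outside this rule, after their values were seen, were the 5 lower genes, Rtp4, Ifit1, Usp18, Irf7, Stat2, Ifi27, Ifitm2, Bst2, Gbp7, Nfkbiz, S100a6, S100a10, Adamts1, Loxl2, Col5a3, Rgs16, Ednra, Adora2a, Ddit4, Adm, Eno1, Sox2, Arntl and Txnip. The members and gene lists were chosen with earlier results of these data known, and the genes shared by both injuries, the clock genes, the 1.5-fold limit and the 20 CPM minimum in naïve cells were set after values were seen. The alternatives were other scalings (edgeR 4.0.16 TMM, DESeq2 1.42.0 size factors, R 4.3.3), filters, pseudocounts, cell filters, thinning, free RNA subtraction and single clusters. Promoter sequences are from RefSeq (GRCm38.p6). Some genes are not reported here. Tables of naïve cells of both lines together were not used.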

Additional observations from a re-analysis of the deposited data

Results flagged for a closer look

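Camk1d, 2-fold higher in NG2 pericytes after ischemic injury, had the opposite direction in cluster 2 of the Tbx18 line. It was 2.57-fold higher (2.46 to 2.69) in NG2 pericytes, in each of the 3 clusters, and 0.569-fold of naïve (0.488 to 0.661) in the Tbx18 line. With 1 library per line and condition the difference between the lines was not tested.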

How the results depend on the processing

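No paired analysis was possible because each condition was 1 pooled library with no replicate. The count of genes at least 2-fold higher and lower (36 and 5) came to 238 and 113 with no CPM minimum, 19 and 0 with a pseudocount of 10 CPM, 113 and 14 with clusters 8 and 10 added, and 74 and 66 in cluster 1 alone. It came to 44 and 10 in cluster 0 alone, 44 and 21 in cluster 2 alone, 46 and 31 after thinning, 34 and 9 with equal weight of the clusters, and 33 and 12 without cells that held 3 or more markers of another type (1861 and 473 cells left). The added limits gave 82 and 44 at 1.5-fold and 14 and 5 with 20 CPM in the naïve library. TMM gave 36 and 6, DESeq2 size factors 37 and 5, totals without mitochondrial, ribosomal and Malat1 UMIs 40 and 6, the mean of per-cell CPM 49 and 4, and free RNA subtraction 33 and 6. The cause of these differences was not tested, beyond the fewer cells or lower levels that some settings bring. Of 656 values of the 41 called genes under these settings, 524 moved by less than their counting interval, 131 by more, and 1 reversed, Mobp at -1.34 after free RNA subtraction. The neuron marker list had 1 tested gene, at 0.59. Its median came to -0.0189 with the totals above, -0.0565 at 5% or less mitochondrial transcripts, -0.0293 without marker-bearing cells and -0.055 in cluster 2 alone. The genes that reach 20 CPM differ between settings (7201 in the main one, 7650 with the totals above). These medians thus need not cover the same gene. In cluster 2 the 7 listed neuron markers summed to 306 CPM in naïve and 440 CPM in ischemic cells. Log2 ratios ranged from 1.67 to 3.04 for Isg15 and 0.68 to 2.18 for Cxcl1. Depth limits the low genes: 22 of the 36 were under 20 CPM in naïve cells.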

Other observations

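Circadian clock genes, listed after their values were seen, had a median log2 ratio of -0.03 over 13 tested after ischemic injury and -0.71 after physical injury. Nr1d1, a repressor of the clock, had 299.9 CPM in naïve, 130.5 CPM in physical injury and 193 CPM in ischemic injury pericytes, and Dbp, an output gene of the clock, had 378, 114 and 290.2 CPM. Arntl, the activator on the opposite arm, had 15.8, 52.1 and 27.8 CPM. The ischemic library lay between the other two for all 3 genes.

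Cytoplasmic ribosomal protein genes had a median log2 ratio of 0.22 over 80 tested, with 73 above 0, beside -0.15 after physical injury, and none was past 1.5-fold. Nuclear genes of oxidative phosphorylation had medians of 0.07 and -0.21 over 76. Txnip, which binds thioredoxin and restrains glucose uptake, was lower in all 3 clusters, with 232, 109 and 129 CPM in naïve, physical injury and ischemic injury pericytes. Among complement genes, 3 were tested: Serping1, the C1 inhibitor, had 41.1, 45.7 and 63.4 CPM and the protease gene C1s1 had 28.3, 7.84 and 16.6 CPM. Txnip was chosen after its values were seen.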
